A study of Mus musculus with 24 samples.

Results

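The IL-6 family and STAT3 genes described here are 9 of the 55376 genes counted in 24 bulk mRNA-seq libraries: the receptor genes Il6ra, Il6st, Osmr and Lifr, the transcription factor gene Stat3, and the responding genes Socs3, Lrg1, C4b and Muc1. They were found by their symbols in the count tables. Socs3, Lrg1, C4b and Muc1 were chosen by measured values, since the rule takes them for being lower in M-TTPΔARE than in M-WT HSCs. Their middle-aged HSC values are therefore a description without a test, and tests of these 4 genes come only from young HSCs and MPP3 cells. All 9 genes were counted in the young HSC comparison, and 8 of 9 had enough counts in the MPP3 comparison, where Lrg1 did not.

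Hematopoietic stem cells (HSCs, sorted as LSK CD34- Flk2- CD150+ cells) came from the bone marrow of young Y-WT (4 libraries) and Y-TTPΔARE mice (4), and of middle-aged M-WT (5) and M-TTPΔARE mice (3). MPP3 cells, multipotent progenitors biased to granulocytes and monocytes, came from young Y-WT (4) and Y-TTPΔARE mice (4). The study's own MPP3 comparison left out a Y-TTPΔARE library that it does not name, and all 4 were used here. TTPΔARE mice are homozygous for the loss of an AU-rich element in the 3′ untranslated region (UTR) of Zfp36, the gene of the mRNA decay factor TTP. WT mice were their littermates, all mice were male, and none was treated. The allele is carried by every cell of the mouse, so the sorted cells and their marrow surroundings both carried it. Young HSCs, middle-aged HSCs and MPP3 cells were numbered in separate series by the labels, and neither age nor cell type can be told apart from the set of libraries.

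Interleukin-6 binds its own receptor, encoded by Il6ra, and this pair recruits the shared signalling chain gp130, encoded by Il6st. Oncostatin M and leukemia inhibitory factor use gp130 together with the chains encoded by Osmr and Lifr. Receptor-bound JAK kinases then phosphorylate STAT3, which moves to the nucleus and binds DNA as a dimer at a palindrome that starts with TTC and ends with GAA. Among the genes it turns on is Socs3, whose protein blocks the same receptors, while Lrg1 and C4b belong to the acute-phase and complement genes that rise in inflamed liver and vessels. TTP acts on another layer, as it binds AU-rich elements in 3′ UTRs and shortens the life of the mRNA.

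The sequences below are shown because Socs3 was the only one of the 9 genes in which both motifs tied to these proteins were found. The first is the part of the Socs3 promoter window of RefSeq (250 bases before to 50 after the start, GRCm38.p6) that overlaps no annotated exon, chr11:117969452-117969616 on the minus strand, 165 bases, with the palindrome TTCNNNGAA in capitals. It lies upstream of the coding transcript, in the intron of 1 longer Socs3 transcript that codes for no protein. The second is the stretch of the Socs3 3′ UTR with TATTTAT, a motif that TTP is known to bind, of which 2 overlapping copies are in capitals, chr11:117966136-117966165 on the minus strand (GENCODE M21, GRCm38).
Socs3 promoter: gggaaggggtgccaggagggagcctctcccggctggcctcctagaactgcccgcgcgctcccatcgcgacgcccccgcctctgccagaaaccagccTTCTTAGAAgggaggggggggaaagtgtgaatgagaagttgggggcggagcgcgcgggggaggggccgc
Socs3 3′ UTR: ttgcacataTATTTATATTTATactcagaa

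The palindrome starts at base -154 from the RefSeq start and 334 bases upstream of the coding transcript of GENCODE. The pattern TTCNNNGAA, with N for any base, is its own reverse complement, so one search covers both strands. RefSeq promoters were found for 8 of the 9 genes (9 windows, as Lifr has 2), and C4b was not matched. Of 32851 promoter windows, 2726 (8.3%) held TTCNNNGAA. The copies of TATTTAT lie at bases 1397 to 1409 of a 3′ UTR of 1474 bases, and 33.2% of the 2858 genes with a UTR of like length (within 20%) held that motif on the transcribed strand. ATTTA, the shorter core that also occurs inside TATTTAT, was found 4 times in Socs3, 2 times in Stat3, 4 in Il6ra, 9 in Il6st, 4 in Osmr and 11 in Lifr. It was not found in the UTRs of Lrg1 (264 bases), C4b (106 bases) and Muc1 (283 bases), and 33.7%, 13.4% and 35.9% of UTRs of like length held it. For Socs3 that share was 84%. Such matches describe letters in these windows and were not tested as binding sites.

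Libraries held between 24261371 and 39934554 counts (median 34817620.5). Zfp36 itself was higher in every TTPΔARE library than in any WT library of its set, with fitted log2 differences of 0.96 ± 0.21 (SE, adjusted p = 0.238) in young HSCs, 0.97 ± 0.11 (adjusted p = 0.0020) in middle-aged HSCs and 1.80 ± 0.18 (adjusted p = 0.00065) in MPP3 cells. Summed over the MPP3 and myeloid progenitor marker list, MPP3 libraries held 2026 to 3953 CPM (counts scaled to library size) and HSC libraries 211 to 524 CPM. B-lineage markers were present in all libraries at 345 to 5369 CPM. Y-WT HSC replicates 1 and 4 stood apart. The summed level of 12 endothelial markers was 1299 and 1409 CPM there, against 524 to 657 CPM in the other 14 HSC libraries, and 11 of the 12 markers were higher in both than in every other young HSC library. Among them, Plvap was at 204 and 210 CPM against 30.6 to 49.3 CPM in the other young HSC libraries, and Cdh5, a defining endothelial gene, at 19.1 and 23.7 CPM against 2.93 to 5.92 CPM. HSCs themselves hold RNA of several of these genes, such as Tie1, which was at 184 CPM or more in every HSC library. The other 14 HSC libraries were alike only in the sum. Plvap (0.89 to 14.3 CPM), Fabp4 (2.83 to 16.8 CPM, against 39.25 to 89.0 CPM), Stab2, Cdh5 and Sox17 were lower in every middle-aged HSC library than in any young one. Tie1 was higher in every middle-aged one, and the remaining markers overlapped between the ages. Macrophage markers were also higher in Y-WT HSC replicates 1 and 4 (293 and 298 CPM, against 84.8 to 176 CPM in the other young HSC libraries). Neutrophil markers were at 183.6 CPM in replicate 4, against 22.3 CPM or less in the other HSC libraries (6.50 CPM in replicate 1).

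Calls required 3 things of a gene: a mean logCPM over 1.5, a fold change over 1.2, and p under 0.05 after Benjamini-Hochberg adjustment over all genes in edgeR's quasi-likelihood test. By this rule none of the 9 genes was called in young HSCs (Y-TTPΔARE against Y-WT), beside 0.0123% of all genes called lower and 0.0123% called higher. In these libraries the summed erythroid markers were at 26.8 to 36.6 CPM in Y-WT and 116 to 357 CPM in Y-TTPΔARE and the HSC markers at 3289 to 3717 and 3840 to 3930 CPM, both without overlap, and their part in the members' values was not tested. At an unadjusted p under 0.05, 4 of the 8 genes over the logCPM limit were lower (Socs3, Lrg1, Osmr and Lifr), as were 660 of 24381 genes (2.71%). These 24381 are all genes tested, and 13782 of them were over that limit. The other tools called more: edgeR's likelihood ratio test called Lrg1 and Osmr lower (0.394% of all genes called lower), and DESeq2 called Lrg1, Osmr and Socs3 lower (0.57%). The study used edgeR with these limits, without naming the test, and reported far more genes changed in young HSCs. It gives Socs3, which it counts among TTP targets from published CLIP-seq data, and Osmr as significantly lower in young and middle-aged HSCs. Why the results differ was not tested. In middle-aged HSCs, none of the 5 genes outside the selected 4 was called, beside 0.71% of genes called lower and 0.7% called higher. Stat3 and Osmr were lower there at an unadjusted p under 0.05, as were 7.55% of all genes, and Osmr alone was called lower by the likelihood ratio test (0.71% of all genes) and by DESeq2 (2.18%). In MPP3 cells (Y-TTPΔARE against Y-WT), none of 8 genes was called by any of the 3 tools, beside 0.137% of genes called lower and 1.57% called higher by the quasi-likelihood test, and only Il6ra passed an unadjusted p of 0.05 above the logCPM limit (higher, as were 6.06% of all genes). One fit over all 24 libraries called Il6ra higher (2.28% of all genes). Between the cell types of young WT mice, 4 of 9 genes were called lower in MPP3 cells than in HSCs (Lrg1, Il6st, Osmr and Lifr) and Il6ra was called higher. There 7.69% of all genes were called lower and 14.5% higher. Of the 4 lower genes, Lrg1, Osmr and Lifr passed the logCPM limit only through the HSC libraries, in which they were higher, so that their calls in this comparison are read as descriptions of the levels. The genotype effect differed between ages for none of the 5 genes that could be tested (0.0213% of all genes called in either direction), with Stat3 alone at an unadjusted p under 0.05 above the logCPM limit (7.3% of all genes in either direction), and neither other tool called one. Between cell types the limits for a different effect were passed by Lrg1 alone (0.425% of all genes). This gene met the limits on counts only through the HSC libraries, so that the result is read as a description. In the likelihood ratio test (0.763%) and DESeq2 (1.26%) Lrg1 and Lifr passed. Lifr too was over the logCPM limit only through the HSC libraries, and these results are read in the same way.

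**Figure D1:**
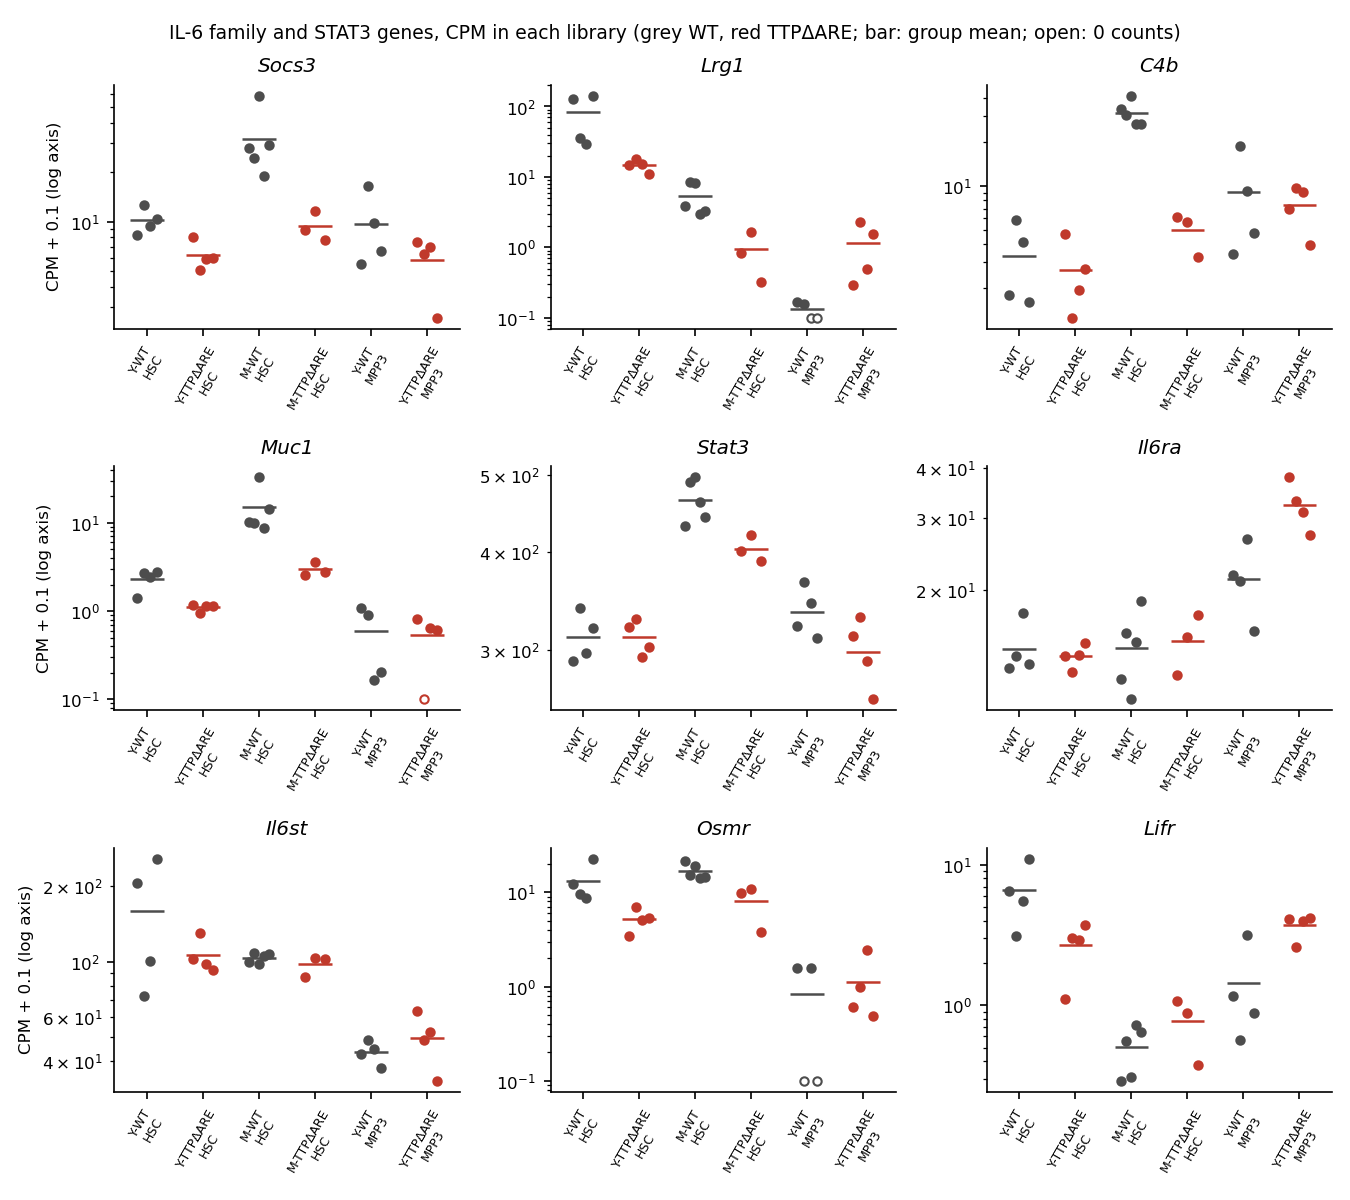
Level of each gene in each library (CPM + 0.1, log axis) in the 6 groups, with grey points for WT, red points for TTPΔARE, a bar at the group mean and open points for libraries without a count. Red points lie below all grey points in both HSC sets for Socs3, Lrg1, Muc1 and Osmr, and above them in MPP3 cells for Lrg1 and Il6ra. For Socs3, Lrg1 and Muc1 the rule chose the genes for being lower in the middle-aged set. The Y-WT MPP3 libraries held 4 counts of Lrg1 in all. The share of all genes that separate in this way is not given here or in the text.

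Il6ra (chr3:89864059-89913196, minus strand) encodes the chain that binds interleukin-6. Its level was 12.7, 13.6, 17.5 and 13.1 CPM in the Y-WT HSC libraries and 13.7, 12.5, 13.8 and 14.7 CPM in Y-TTPΔARE. In middle-aged HSCs it was 11.9, 15.6, 10.7, 14.8 and 18.7 CPM in M-WT and 12.3, 15.3 and 17.2 CPM in M-TTPΔARE. The 4 HSC groups overlapped, with fitted log2 differences of -0.10 ± 0.13 (SE, adjusted p = 0.786) in young and 0.01 ± 0.18 (adjusted p = 0.983) in middle-aged HSCs. MPP3 cells held more: 21.7, 20.9, 26.5 and 15.7 CPM in Y-WT and 37.8, 32.9, 30.9 and 27.1 CPM in Y-TTPΔARE. All 4 Y-TTPΔARE MPP3 libraries lay above all 4 Y-WT MPP3 libraries, but the difference of 0.59 ± 0.18 on the log2 scale did not pass the test (adjusted p = 0.191). Without Y-TTPΔARE MPP3 replicate 4, the library with the fewest counts of Il6st and Socs3 in its group, it was 0.71 (adjusted p = 0.051), and one fit over all 24 libraries called it at 0.60 (adjusted p = 0.042). In these MPP3 libraries the summed macrophage markers were at 86.3 to 205 CPM in Y-WT and 320 to 567 CPM in Y-TTPΔARE. Erythroid (13.2 to 31.2 and 57.5 to 179 CPM) and T-cell markers (6.22 to 7.16 and 11.3 to 14.7 CPM) were also higher in every Y-TTPΔARE library, and megakaryocyte (141 to 156 and 82.3 to 96.7 CPM) and stromal markers (65.0 to 125 and 30.5 to 57.4 CPM) lower. The part of these lists in the Il6ra values was not tested. The WT cell types differed by 0.53 ± 0.15 (adjusted p = 0.027), higher in MPP3. That call was lost when any 1 of 5 libraries was left out (Y-WT HSC replicates 2 and 4 and Y-WT MPP3 replicates 1, 2 and 3, with adjusted p between 0.057 and 0.097). Il6ra overlaps an antisense gene, Gm42809, and whether the counting used strand is not stated.

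Il6st (chr13:112464070-112510086, plus strand), the gp130 gene, was the most abundant of the 4 receptor genes in HSCs, with 14.3 CPM per kilobase of exon in Y-WT against 1.65 for Il6ra, 1.09 for Osmr and 0.60 for Lifr. It was at 205, 72.8, 100.5 and 258 CPM in Y-WT HSCs and at 103, 130, 97.9 and 92.6 CPM in Y-TTPΔARE HSCs. The values above 200 are the 2 Y-WT libraries with high endothelial markers, and the other 2 lie within or below the Y-TTPΔARE range. The difference was -0.62 ± 0.33 on the log2 scale (adjusted p = 0.711), and it turned to 0.31 (adjusted p = 0.307) without those 2 libraries. Middle-aged HSCs were nearly level, at 98.1 to 108 CPM (median 105) in the 5 M-WT libraries and 87.0, 103 and 102 CPM in M-TTPΔARE (log2 difference -0.13 ± 0.07, adjusted p = 0.382). In MPP3 cells Il6st was at 42.8, 48.5, 44.6 and 37.6 CPM in Y-WT and 63.2, 48.7, 52.5 and 33.3 CPM in Y-TTPΔARE, with overlapping groups (0.18 ± 0.22, adjusted p = 0.777). MPP3 cells of WT mice had less Il6st than HSCs in every library, by -1.92 ± 0.37 on the log2 scale (adjusted p = 0.0047). Without the 2 Y-WT HSC libraries the difference was -1.004 (adjusted p = 0.00588). The call was lost with the endothelial marker sum as a covariate (-0.39, adjusted p = 0.382), a sum that itself separates the WT cell types without overlap (344 to 393 CPM in MPP3 cells, 548 to 1409 CPM in HSCs), so that the sum and the cell type cannot be told apart in that fit.

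Osmr (chr15:6813577-6874969, minus strand) encodes the oncostatin M receptor. Young HSCs held 12.0, 9.40, 8.58 and 22.6 CPM in Y-WT and 3.33, 6.80, 4.92 and 5.20 CPM in Y-TTPΔARE. Middle-aged HSCs held 21.4, 15.2, 18.6, 14.1 and 14.2 CPM in M-WT and 9.71, 10.6 and 3.69 CPM in M-TTPΔARE. Every TTPΔARE library was below every WT library of its age. The log2 difference was -1.42 ± 0.30 (adjusted p = 0.215) in young HSCs, where the likelihood ratio test gave an adjusted p of 0.007 and DESeq2 0.003. It was -1.12 ± 0.29 (adjusted p = 0.085) in middle-aged HSCs, with 0.033 and 0.034 by these tools. The 2 ages share no library, and the difference between their effects was 0.24 ± 0.45 (adjusted p = 0.784). In young HSCs the difference was -0.81 without Y-WT replicates 1 and 4 (adjusted p = 0.187), -1.39 without replicate 1 alone and -0.99 without replicate 4 alone. The remaining Y-WT libraries, at 8.58 and 9.40 CPM, still lay above all 4 Y-TTPΔARE libraries. MPP3 cells had almost none, at 1.48, 0, 1.47 and 0 CPM in Y-WT and 0.51, 0.89, 2.31 and 0.39 CPM in Y-TTPΔARE. A count of 0 allows up to 0.087 and 0.078 CPM in the 2 Y-WT libraries (3 counts, for counting error only). The 2 Y-WT MPP3 libraries with Osmr counts were those with more counts of olfactory and vomeronasal receptor genes (227 and 338 CPM, against 19.99 and 18.8 CPM in the other 2). The WT cell types differed by -4.28 ± 1.02 (adjusted p = 0.013), lower in MPP3. With the sum of those receptor genes as a covariate the difference was -3.92 (adjusted p = 0.007), and beyond that fit their part was not tested. The difference was -4.95 without Y-WT MPP3 replicate 1. The call was lost without Y-WT HSC replicate 4 (adjusted p = 0.061) and without both libraries with high endothelial markers (adjusted p = 0.138).

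Lifr (chr15:7090614-7197489, plus strand), the receptor chain of leukemia inhibitory factor, was at 6.45, 3.03, 5.42 and 11.0 CPM in Y-WT HSCs and at 1.01, 2.93, 2.81 and 3.63 CPM in Y-TTPΔARE HSCs. The groups overlapped at 1 library pair (3.03 and 3.63 CPM), and the log2 difference of -1.37 ± 0.42 did not pass the test (adjusted p = 0.391). Without Y-WT replicates 1 and 4 it was -0.70 (adjusted p = 0.348). Middle-aged HSCs held far less, 0.19 to 0.62 CPM in M-WT and 0.28 to 0.97 CPM in M-TTPΔARE (8 to 31 counts a library, 0.69 ± 0.59, adjusted p = 0.598). MPP3 cells held 1.06, 0.46, 3.08 and 0.78 CPM in Y-WT and 4.01, 2.50, 3.90 and 4.11 CPM in Y-TTPΔARE. There 1 of 4 Y-WT libraries lay within the Y-TTPΔARE range. The log2 difference was 1.42 ± 0.52 (adjusted p = 0.296). When that library, Y-WT MPP3 replicate 3, was left out, it was 2.19 (adjusted p = 0.031), which is no call since Lifr was below the logCPM limit there. The fitted young genotype effects thus had opposite signs in the 2 cell types. Their difference was 2.69 ± 0.73 on the log2 scale (adjusted p = 0.148), and 3.53 without Y-WT MPP3 replicate 3. Lifr passed the logCPM limit in this fit only through the HSC libraries. The lower adjusted p of the likelihood ratio test (0.043) and DESeq2 (0.011) are therefore not read as calls. Lifr was lower in WT MPP3 cells than in WT HSCs by -2.34 ± 0.59 (adjusted p = 0.017), by -3.09 (adjusted p = 0.0037) without Y-WT MPP3 replicate 3. The call was lost without Y-WT HSC replicate 4 (adjusted p = 0.062), without Y-WT MPP3 replicate 4 (adjusted p = 0.054) and without both libraries with high endothelial markers (adjusted p = 0.173).

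**Figure D2:**
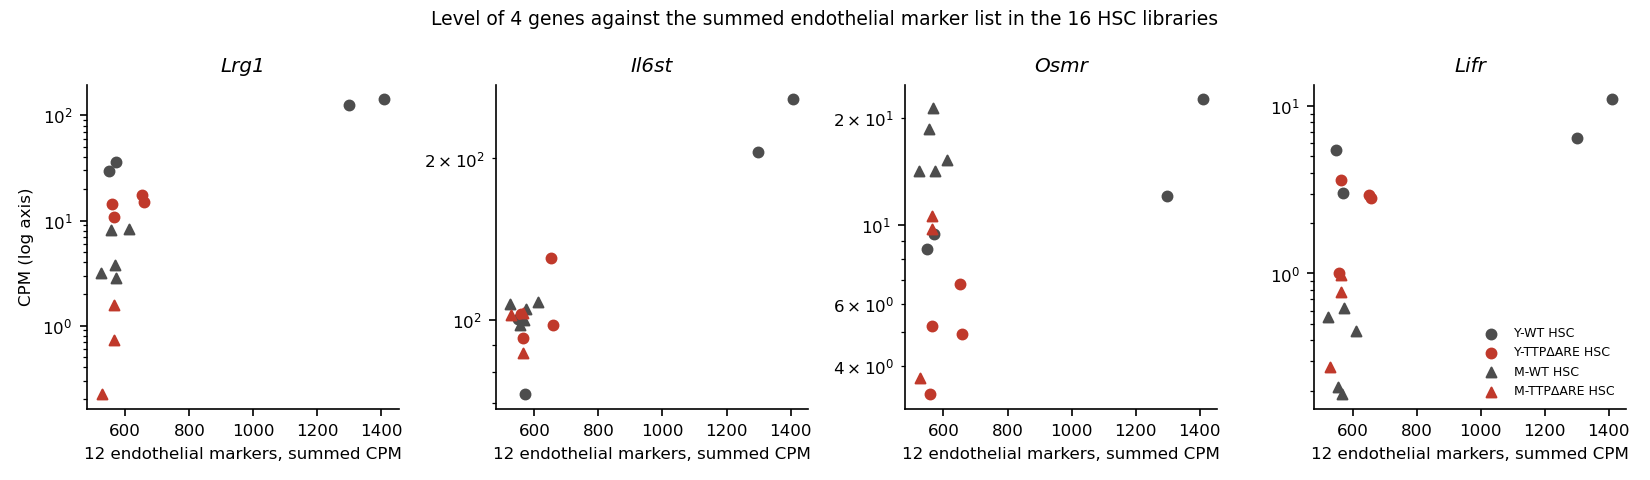
Level of Lrg1, Il6st, Osmr and Lifr (CPM, log axis) against the summed CPM of 12 endothelial markers in the 16 HSC libraries (circles young, triangles middle-aged, grey WT, red TTPΔARE). The 2 Y-WT libraries at 1299 and 1409 CPM on the horizontal axis have the highest Lrg1, Il6st and Lifr, and the other 14 libraries lie between 524 and 657 CPM.

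Stat3 (chr11:100885098-100939540, minus strand), the transcription factor of the pathway, was the steadiest of the 9 genes. It was at 291, 339, 298 and 320 CPM in Y-WT HSCs and 321, 328, 294 and 302 CPM in Y-TTPΔARE HSCs, with full overlap (log2 difference -0.05 ± 0.08, adjusted p = 0.835). Middle-aged HSCs held more: 431, 491, 497, 462 and 442 CPM in M-WT and 400.4, 420.3 and 389 CPM in M-TTPΔARE. All 3 M-TTPΔARE libraries were below all 5 M-WT libraries, and the log2 difference was -0.25 ± 0.05 (adjusted p = 0.047). This passes the limit on p but not the fold limit of 1.2, so Stat3 was not called. Without M-WT replicate 1 it passed both at -0.27 (adjusted p = 0.044), and the adjusted p was up to 0.162 when other libraries were left out in turn. The difference between the effects at the 2 ages was -0.25 ± 0.10 (adjusted p = 0.285). In MPP3 cells Stat3 was at 322, 365, 344 and 311 CPM in Y-WT and 313, 330.2, 290 and 260 CPM in Y-TTPΔARE, with overlap (-0.19 ± 0.15, adjusted p = 0.639). HSCs and MPP3 cells of WT mice did not separate either (0.07 ± 0.09, adjusted p = 0.556). Stat3 overlaps Stat5a on the other strand.

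Socs3 (chr11:117966079-117970047, minus strand), the feedback inhibitor whose promoter and UTR are printed above, was at 8.20, 12.5, 9.29 and 10.3 CPM in Y-WT HSCs and at 7.94, 4.99, 5.82 and 5.91 CPM in Y-TTPΔARE HSCs. The groups touch without overlap, with the lowest Y-WT library at 8.20 and the highest Y-TTPΔARE library at 7.94 CPM. The log2 difference was -0.74 ± 0.19 (adjusted p = 0.297), and DESeq2 called it (adjusted p = 0.049). It was as large without Y-WT replicates 1 and 4 (-0.78, adjusted p = 0.186), since these did not stand apart for Socs3 (8.20 and 10.3 CPM). In middle-aged HSCs, where the rule chose it, Socs3 was at 27.9, 24.4, 58.7, 18.8 and 29.3 CPM in M-WT and 8.77, 11.5 and 7.58 CPM in M-TTPΔARE, with means of 31.8 ± 15.6 (SD, n = 5) and 9.28 ± 2.01 (SD, n = 3). The fitted log2 difference was -1.83 ± 0.33. The M-WT mean was 3.16 times the Y-WT mean, and the M-TTPΔARE range (7.58 to 11.5 CPM) overlapped the Y-WT range (8.20 to 12.5 CPM). MPP3 cells held 5.43, 16.4, 9.68 and 6.53 CPM in Y-WT and 7.37, 6.20, 6.86 and 2.48 CPM in Y-TTPΔARE. These overlapped (-0.73 ± 0.44, adjusted p = 0.544), and the difference was -0.48 without Y-TTPΔARE MPP3 replicate 4, which had 58 counts. Without Y-WT MPP3 replicate 2, the library at 16.4 CPM, it was -0.30 (adjusted p = 0.933). WT HSCs and MPP3 cells differed by -0.10 ± 0.32 (adjusted p = 0.821).

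Lrg1 (chr17:56119678-56122001, minus strand) encodes a secreted leucine-rich glycoprotein of the acute phase that endothelium also makes. It had the widest range of the 9 genes over the groups. Y-WT HSCs held 127, 35.8, 29.6 and 143 CPM and Y-TTPΔARE HSCs 14.4, 17.6, 15.1 and 10.9 CPM, so that every Y-TTPΔARE library was below every Y-WT library. The Y-WT values split with the endothelial markers, 127 and 143 CPM in replicates 1 and 4 against 29.6 and 35.8 CPM in the others. The log2 difference was -2.56 ± 0.47 (adjusted p = 0.167), with an adjusted p of 0.000139 by the likelihood ratio test and 0.00175 by DESeq2. Without replicates 1 and 4 it was -1.14 (adjusted p = 0.089), and with the endothelial marker sum as a covariate it was -1.42 and called (adjusted p = 0.0095). Middle-aged HSCs, chosen by the rule, held 3.75, 8.29, 8.05, 2.87 and 3.15 CPM in M-WT and 0.72, 1.56 and 0.22 CPM in M-TTPΔARE (fitted log2 difference -2.69 ± 0.57, and -3.53 without M-TTPΔARE replicate 2, the library at 1.56 CPM). There the endothelial sum was alike (524 to 611 and 528 to 564 CPM), with Tie1 as its largest part (262 to 298 and 267 to 284 CPM). Its 12 genes went both ways. Plvap (5.64 to 14.3 and 0.89 to 5.59 CPM), Fabp4 (6.88 to 16.8 and 2.83 to 4.51 CPM) and Cldn5 (36.8 to 47.7 and 22.0 to 33.6 CPM) were lower in every M-TTPΔARE library. Emcn (31.5 to 41.6 and 42.5 to 51.5 CPM) and Egfl7 (60.1 to 72.9 and 83.8 to 85.6 CPM) were higher in every one, and the other 7 overlapped. Of these 7, Cdh5 (0.62 to 1.47 and 0.17 to 0.73 CPM), Stab2 (5.6 to 15.0 and 2.08 to 5.94 CPM), Ptprb and Sox17 reached lower at both ends in M-TTPΔARE. Pecam1 reached higher at both ends (59.45 to 69.2 and 66.4 to 70.85 CPM). For Kdr and Tie1 the M-TTPΔARE range lay within that of M-WT. With the endothelial marker sum as a covariate the fitted log2 difference of Lrg1 in middle-aged HSCs was -2.51. That sum was alike in both groups and Tie1 was its largest part. The fit therefore cannot adjust for the marker genes that were lower in M-TTPΔARE, and no conclusion is drawn from it. The part of the single marker genes in the Lrg1 values was not tested. In Y-WT MPP3 cells Lrg1 was at or near 0, with 2, 2, 0 and 0 counts. These 4 counts give 0.030 CPM (95% Poisson interval 0.0083 to 0.078 CPM, for counting error only), against 29.6 CPM or more in Y-WT HSCs. The fitted log2 difference between the cell types, -11.30 ± 0.96, rests on those 4 counts, and Lrg1 entered this fit only through the HSC libraries. It was -9.89 without Y-WT HSC replicates 1 and 4. Y-TTPΔARE MPP3 libraries held 6, 74, 11 and 34 counts (0.19, 2.20, 0.40 and 1.45 CPM), each more than any Y-WT MPP3 library. Too few libraries of this pair reached the count minimum for a test on the pair alone. In one fit over all 24 libraries the difference was 4.96 ± 1.07 (adjusted p = 0.00735), but Lrg1 passed the count and logCPM limits there only through the HSC libraries, so this is given as a value and not as a call. The fit of the difference between cell types, which includes the HSC libraries, gave a difference of 7.43 ± 1.22 in the effect of the genotype. This difference compares a lower level in Y-TTPΔARE HSCs with counts near 0 in MPP3 cells. Lrg1 entered that fit only through the HSC libraries, so the difference too is given as a value and not as a call.

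C4b (chr17:34728380-34743882, minus strand), a complement component gene, showed its contrast in the middle-aged set. M-WT HSCs held 33.3, 30.5, 41.4, 26.5 and 26.4 CPM and M-TTPΔARE HSCs 6.04, 5.56 and 3.17 CPM, a description since the rule used these values (fitted log2 difference -2.74 ± 0.23). Young HSCs held 1.68, 5.72, 4.01 and 1.51 CPM in Y-WT and 4.58, 1.15, 1.82 and 2.62 CPM in Y-TTPΔARE, which overlapped (-0.37 ± 0.53, adjusted p = 0.807). The M-WT mean was 9.79 times the Y-WT mean, and the M-TTPΔARE range reached into that of the young HSCs. MPP3 cells held 3.32, 18.7, 9.15 and 4.69 CPM in Y-WT and 6.86, 9.53, 9.03 and 3.81 CPM in Y-TTPΔARE, also with overlap (-0.30 ± 0.53, adjusted p = 0.860). The WT cell types differed by 1.47 ± 0.60 (adjusted p = 0.110), higher in MPP3. It was 0.82 (adjusted p = 0.327) without Y-WT MPP3 replicate 2, the library at 18.7 CPM, while one fit over all libraries gave 1.48 (adjusted p = 0.0298). C4b has a near-identical copy, C4a, so that reads may be split between them. C4a was at 0 to 1.87 CPM in all 24 libraries, with overlapping genotypes in each set.

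Muc1 (chr3:89229057-89233381, plus strand) encodes a membrane mucin. M-WT HSCs held 10.1, 9.80, 32.8, 8.60 and 14.1 CPM and M-TTPΔARE HSCs 2.45, 3.49 and 2.69 CPM, again as a description (fitted log2 difference -2.43 ± 0.44). In young HSCs it was at 1.31, 2.59, 2.34 and 2.66 CPM in Y-WT and 1.07, 0.85, 1.04 and 1.05 CPM in Y-TTPΔARE. These groups did not overlap, with a log2 difference of -1.19 ± 0.35 (adjusted p = 0.369) at a logCPM of 0.84, below the limit for a call. It was as large without Y-WT replicates 1 and 4 (-1.27). The M-WT mean was 6.78 times the Y-WT mean. MPP3 cells had 28, 28, 2 and 4 counts in Y-WT and 22, 0, 15 and 12 counts in Y-TTPΔARE (-0.19 ± 1.15, adjusted p = 0.963), where a count of 0 allows up to 0.089 CPM. Just inside the rule, the selected gene with the smallest fitted drop in middle-aged HSCs was Socs3 at -1.83, and just outside it stood Osmr at -1.12.

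**Figure D3:**
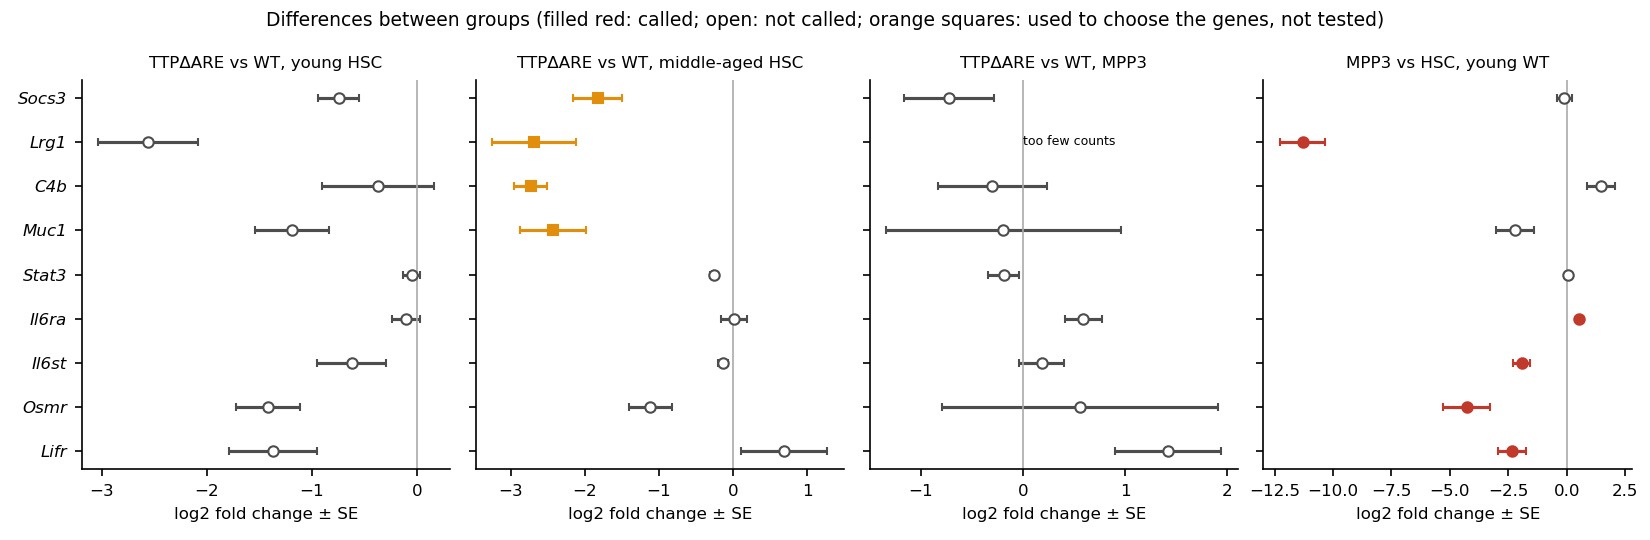
Fitted log2 fold change ± SE of the 9 genes in 4 comparisons, with filled red points for genes called, open points for genes not called and orange squares for the 4 genes whose middle-aged HSC values chose them. The horizontal axes differ between panels, and the red points are all in the comparison of WT MPP3 cells with WT HSCs.

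In middle-aged HSCs, other marker lists moved with genotype beside the selected genes. The MPP3 and myeloid progenitor list was at 316 to 391 CPM in M-WT and 211 to 222 CPM in M-TTPΔARE, the megakaryocyte list at 171 to 206 and 119 to 148 CPM, and the HSC list at 3983 to 4755 and 4832 to 5256 CPM. None of these ranges overlapped. The neutrophil list, at 6.61 to 14.2 and 3.42 to 5.47 CPM, did not overlap either, and the macrophage list did, at 38.2 to 55.0 and 32.8 to 38.6 CPM. Their part in the levels of Socs3, Lrg1, C4b and Muc1 was not tested, and in bulk samples fewer cells of a type and less RNA per cell cannot be told apart.

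Socs3, C4b, Muc1 and Stat3 were highest in M-WT HSCs, and for each of these genes the M-WT range did not overlap that of the next group (Y-WT HSCs for Socs3, Y-WT MPP3 cells for C4b, M-TTPΔARE HSCs for Muc1 and Stat3). Socs3, C4b and Muc1 were chosen for being lower in M-TTPΔARE than in M-WT HSCs, so a high M-WT rank is partly built into the choice. For Muc1 the gap to the next group is the contrast that chose it. Stat3 was not chosen by its values. Lrg1, Il6st and Lifr had their highest means in Y-WT HSCs, for Il6st only through replicates 1 and 4 (205 and 258 CPM), as the other 2 libraries (72.8 and 100.5 CPM) lay below the mean of Y-TTPΔARE HSCs (105.9 CPM). For Lrg1 the order ran on through Y-TTPΔARE HSCs and M-WT HSCs without overlap between neighbours, whereas the Il6st and Lifr ranges overlapped those of the next group. Endothelial marker genes such as Plvap and Fabp4 were also lower in every middle-aged than in any young HSC library. Their part in the Lrg1 and Lifr levels at both ages was not tested. Il6ra alone was highest in Y-TTPΔARE MPP3 cells, apart from Y-WT MPP3 cells without overlap, and its 4 HSC groups followed with overlap at every step. Osmr was highest in M-WT HSCs, but overlapped with Y-WT HSCs, and both MPP3 groups lay below all HSC libraries.

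Within groups, Socs3 and C4b moved together from library to library. The library with the most Socs3 also had the most C4b in 4 of the 6 groups, namely M-WT replicate 3 (58.7 and 41.4 CPM), Y-WT HSC replicate 2 (12.5 and 5.72 CPM), Y-TTPΔARE HSC replicate 1 (7.94 and 4.58 CPM) and Y-WT MPP3 replicate 2 (16.4 and 18.7 CPM). Across the 24 libraries, after the group mean of log2 CPM was taken off each gene, the pair had r = 0.74 (Pearson) and rho = 0.73 (Spearman), with r = 0.76 without the 2 libraries farthest from the median of Socs3. It was 0.56 over the 16 HSC libraries and 0.92 over the 8 MPP3 libraries. This was the highest r of the 36 pairs among the 9 genes, whose median was 0.06. Socs3 and Stat3 followed at 0.69, Osmr and Lifr at 0.55, and C4b and Stat3 at 0.55, the other pairs lying between -0.42 and 0.32. Socs3 and Muc1 had r = 0.90 in the 16 HSC libraries, with M-WT replicate 3 highest in both, and -0.01 in the 8 MPP3 libraries, where Muc1 counts were few. Both genes of a pair come from the same library and depth, so these values are descriptions.

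**Figure D4:**
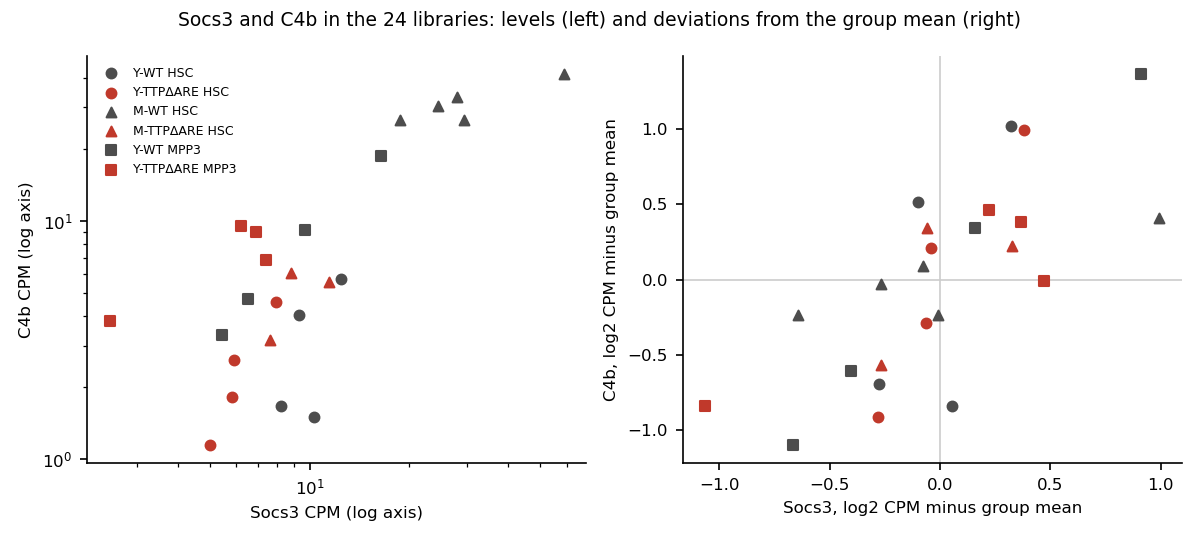
Socs3 against C4b in the 24 libraries, as CPM on log axes (left) and as log2 CPM minus the group mean (right), with circles for young HSCs, triangles for middle-aged HSCs, squares for MPP3 cells, grey for WT and red for TTPΔARE. The 5 M-WT libraries form the upper right of the left panel, and the deviations in the right panel have r = 0.74.

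The rest of the pathway was followed in 6 lists of ligands, receptors, transducers, inhibitors, STAT3 targets and acute-phase genes, 70 genes besides the 9. In young HSCs none of the 58 tested was called, while 2 were lower and 5 higher at an unadjusted p under 0.05, beside 2.71% of all genes lower and 3.09% higher. DESeq2 called 2 higher (0.677% of all genes) and the likelihood ratio test none (0.205%). The median log2 difference of those above the logCPM limit was 0.06, beside 0.03 for all genes. In middle-aged HSCs, 2 of 54 were called lower and 2 higher, beside 0.71% and 0.7% of all genes (median -0.05, beside -0.03 for all genes). Pim1, a kinase gene turned on by STAT factors, fell from 77.6 to 112 CPM in M-WT to 56.6 to 65.4 CPM in M-TTPΔARE (log2 difference -0.59 ± 0.11, adjusted p = 0.027). Cebpd, a transcription factor gene of the acute phase, fell from 15.3 to 23.7 CPM to 9.42 to 12.0 CPM (-0.82 ± 0.15, adjusted p = 0.023). Ebi3, a subunit of interleukin-27 and interleukin-35, rose from 22.4 to 42.1 CPM to 55.7 to 74.4 CPM (0.90 ± 0.18, adjusted p = 0.036). Vegfa, the vascular growth factor gene, rose from 8.04 to 9.78 CPM to 11.8 to 15.3 CPM (0.55 ± 0.12, adjusted p = 0.046). All 4 calls are sensitive to the libraries, as both lower calls were lost without any 1 of the 3 M-TTPΔARE libraries, and at least 1 higher call without any 1 library other than M-WT replicate 5. None of the 4 was called in one fit over all 24 libraries or with the receptor gene sum as a covariate, and neither higher call was made with the endothelial marker sum as a covariate. Bcl3, which encodes a regulator of NF-κB, was lower at -0.96 ± 0.22 without passing (adjusted p = 0.057).

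In MPP3 cells none of 53 pathway genes was called by the quasi-likelihood test, while 5 were lower and 10 higher at an unadjusted p under 0.05, beside 4.17% of all genes lower and 6.06% higher. Of the pathway genes, 48 were over the logCPM limit, against 12850 of the 19023 genes that these shares divide by. The likelihood ratio test called 5 higher (2.42% of all genes) and 1 lower (0.41%), whereas 6 higher (2.96%) and 4 lower (1.07%) calls came from DESeq2. Bcl2l1, a survival gene, was near a call (-0.53 ± 0.12, adjusted p = 0.051). Of the acute-phase list, Hp, the haptoglobin gene, was at 0.16 to 5.09 CPM in Y-WT and 5.93 to 16.0 CPM in Y-TTPΔARE (2.76 ± 0.75, adjusted p = 0.127), and C3, the central complement gene, at 0.73 to 4.05 and 4.80 to 14.1 CPM (2.01 ± 0.56, adjusted p = 0.139). Neither pair of ranges overlapped. Between the WT cell types, 11 of 54 pathway genes were called lower and 8 higher in MPP3 cells, beside 7.69% and 14.5% of all genes (median -0.05, beside 0.12 for all genes). The inhibitor genes Socs2 (-2.99 ± 0.29, adjusted p = 0.000115), Cish (-1.74 ± 0.31, adjusted p = 0.0035) and Socs1 (-0.82 ± 0.19, adjusted p = 0.013) were lower, whereas Socs3 was not called. Both other receptor genes above the logCPM limit, Il27ra (-0.47 ± 0.12, adjusted p = 0.018) and Il11ra1 (-0.41 ± 0.12, adjusted p = 0.033), were also lower, the latter with near copies that may share its reads. Of the ligands, Ctf1 was lower (-1.47 ± 0.24, adjusted p = 0.0023) and Osm, the gene of oncostatin M, higher (1.02 ± 0.23, adjusted p = 0.011). Of the 11 lower calls, 5 held without Y-WT HSC replicates 1 and 4 (Socs2, Cish and Ctf1 among them) and 6 without Y-WT MPP3 replicate 2. Those of Socs1 (adjusted p = 0.103 and 0.0513) and Il11ra1 (0.133 and 0.103) were lost in both fits, and those of Il27ra (0.0842) and Osm (0.0857) in the first. With the endothelial marker sum as a covariate Socs2 alone was called lower. The shares of all genes called in these alternative fits are not given, so the counts show only which calls were kept. Il6 itself was at 0 to 2.53 CPM in all 24 libraries, and Lif at 0 to 1.71 CPM.

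**Figure D5:**
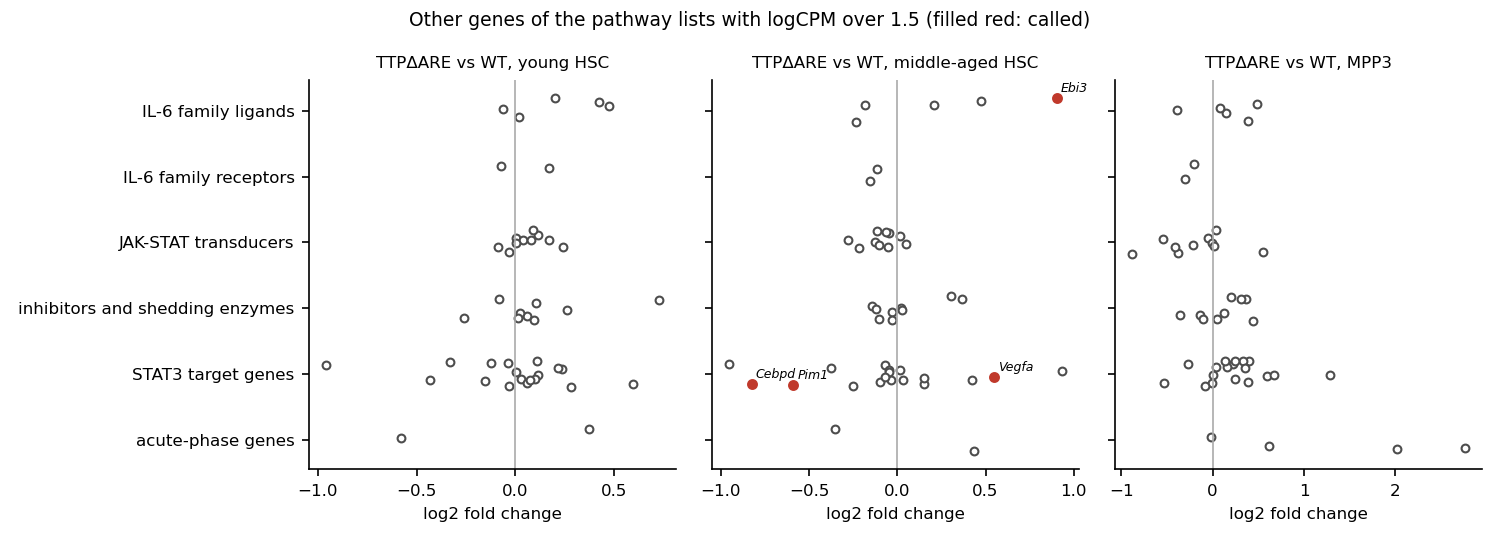
Fitted log2 fold change of the other pathway genes with a logCPM over 1.5, by list, for TTPΔARE against WT in young HSCs, middle-aged HSCs and MPP3 cells, with filled red points for called genes. Cebpd and Pim1 lie at -0.82 and -0.59 and Ebi3 and Vegfa at 0.90 and 0.55 in middle-aged HSCs, and no gene is called in the other panels.

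Genes with the most similar pattern were found for each of the 9 genes as the smallest root mean square difference of centred mean log2 CPM over the 6 groups. For Socs3 this was Pim2 at 0.33, beside its own range of 2.46. C4b was nearest to Slpi (0.62, range 3.76), Muc1 to Itgb3 (0.55, range 5.23) and Lrg1 to Rgs4, Ackr1 and Mmrn2 (0.79, 0.80 and 0.84, range 9.61). Osmr was nearest to Nxpe2 (0.14) and then Epas1 (0.34, range 5.78), and Lifr to Nrp1 (0.51, range 3.79). The flatter patterns had closer neighbours, with Ctdsp2 at 0.04 for Stat3, Erp29 at 0.08 for Il6ra and Zfp697 at 0.12 for Il6st. Of 27 such genes, 24 were found again with a prior count of 0.5 in place of 2. Rgs4 was among those not found again, as the nearest genes to Lrg1 were then Ackr1, Abcc9 and Mmrn2.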

How the data were processed

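Bulk mRNA-seq of 24 mouse libraries was analysed. The authors deposited raw counts per gene symbol, 1 table a library. Per the labels' processing notes and the study's methods, reads were trimmed with cutadapt, aligned with STAR to mm10 and counted with featureCounts on GENCODE annotation; the strand setting is not given in the sources used here. The labels and the methods name different library kits. No label says which mouse a library came from, so p-values measure the spread between these libraries.

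Counts were filtered (filterByExpr, minimum count 10, minimum total 15), TMM-scaled and tested with the quasi-likelihood test of edgeR 4.0.16 in R 4.3.3, with p adjusted by Benjamini-Hochberg over all genes tested. Limits for a call were 0.05 on adjusted p, 1.2 on the fold change (none for interaction terms) and 1.5 on logCPM. Shares of all genes divide by all genes tested, also those under the logCPM limit. In middle-aged HSCs 13413 of 21136 were over it, and between WT cell types 13433 of 22816. Most pathway genes tested were over it, so these shares are not on a like base. The SE is the log2 fold change divided by the square root of F. CPM use TMM factors over all 24 libraries. Alternatives were DESeq2 1.42.0, the likelihood ratio test, RLE scaling, no filter on low counts, the replicate number as a block, one fit over all libraries, and each library left out. Both covariates (log2 summed endothelial markers, and log2 summed olfactory and vomeronasal receptor genes) and the fit without Y-WT HSC replicates 1 and 4 were added after the data were seen.

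Members and gene lists were chosen with earlier results of these data known. Named genes are the 9 members, called or closest pathway genes, and the nearest genes by pattern (logCPM over 1.5, no immunoglobulin or T-cell receptor segments). Genes named as closest to a call were chosen after their values were seen. Positions and UTRs were read from the GENCODE M21 annotation (GRCm38), which is not the release of the authors' index. The tests were tested on simulated counts. No 2 libraries of a group agreed within sampling noise (lowest chi-square per degree of freedom 18.2).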

Additional observations from a re-analysis of the deposited data

Results flagged for a closer look

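Of 45 combinations of a gene and a group of 4 or 5 libraries, 4 had a library far from the others (the gap to its neighbour against the whole range of the group); chance gives about 1 in 20. Socs3 was at 58.7 CPM in M-WT HSC replicate 3, with the next library at 29.3 CPM, and Muc1 was at 32.8 CPM in the same library, with the next at 14.1 CPM. Without this library the fitted log2 differences in middle-aged HSCs, a description since the rule used them, were -1.50 for Socs3 and -1.94 for Muc1. Muc1 was at 0.846 CPM in Y-TTPΔARE HSC replicate 2, with the next library at 1.04 CPM. Lifr was at 2.50 CPM in Y-TTPΔARE MPP3 replicate 2, with the next library at 3.90 CPM.

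The fitted effect of TTPΔARE on Lrg1 differed between young HSCs and MPP3 cells by 7.43 on the log2 scale. In HSCs 4 of 4 Y-TTPΔARE libraries lay below the Y-WT libraries, and in MPP3 cells 4 of 4 lay above them. The MPP3 side of this difference rests on 4 counts in Y-WT and 125 in Y-TTPΔARE over 4 libraries each. Lrg1 passed the limits on counts only through the HSC libraries, so the difference is given as a value and not as a test result. Without Y-TTPΔARE MPP3 replicate 2 the difference was 6.64. Without Y-WT HSC replicates 1 and 4 the difference was 6.10, and over the alternatives it lay between 6.02 and 7.98.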

How the results depend on the processing

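Of 928 single-gene values under the alternatives, 833 kept their direction and their side of the threshold, 17 lost a call, 19 gained one and 59 turned sign, and 425 of 504 counts of calls stayed within 1.5 times. The cause of each change was not tested, except where fewer libraries entered the fit. Except where a share of all genes is given above, the counts below stand without that share in the same fit. They show only that calls changed. Members called lower in young HSCs went from 0 to 3 with DESeq2, 2 with the likelihood ratio test, and 1 each with no filter, the endothelial covariate and the receptor gene covariate. In middle-aged HSCs they went from 0 to 1 with DESeq2, the likelihood ratio test, no filter and no fold limit. Members called higher in MPP3 cells went from 0 to 2 in one fit over all libraries (Il6ra, and Lrg1, which met the limits on counts there only through the HSC libraries and is not read as a call). Between WT cell types, members called lower went from 4 to 2 without both Y-WT HSC libraries with high endothelial markers and 1 with that covariate. The endothelial sum separates the WT cell types without overlap (344 to 393 CPM in MPP3 cells, 548 to 1409 CPM in HSCs), so that the sum and the cell type cannot be told apart in those fits. Those called higher went from 1 to 0 in these fits and with no filter, and to 2 in one fit. In the cell type interaction they went from 1 to 2 with DESeq2 and the likelihood ratio test (Lrg1 and Lifr, which met the limits only through the HSC libraries and are not read as calls).

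Pathway genes called higher in young HSCs went from 0 to 2 with DESeq2 and to 1 with no filter or without both libraries. In middle-aged HSCs, the 2 called lower became 4 with no filter and 0 in one fit and with the receptor covariate, and the 2 called higher became 1 with the likelihood ratio test and 0 in one fit and with either covariate. In MPP3 cells, 0 lower became 4 with DESeq2 and one fit, and 1 with the likelihood ratio test, RLE scaling, no filter and the endothelial covariate, while 0 higher became 6 with DESeq2, 5 with the likelihood ratio test and one fit, 3 with no filter and 1 with either covariate. Between WT cell types, 11 lower became 5 without both libraries and 1 with the endothelial covariate, and 8 higher became 2 with that covariate. In the age interaction 0 lower became 3 with DESeq2. In the cell type interaction 0 lower became 1 with DESeq2 and the likelihood ratio test and 2 in one fit.

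Correlations of same-numbered libraries lay between -0.15 and 0.21, and not every library correlated best with its own number. Between WT HSCs and MPP3 cells they were 0.029, 0.131, 0.089 and 0.190, and replicates 2 and 4 correlated best with their own number. So few pairs cannot decide whether the replicate numbers pair the libraries. With the replicate number as a block, members called higher between WT cell types went from 1 to 2, pathway genes in middle-aged HSCs from 2 to 1 in both directions, those called higher in MPP3 cells from 0 to 1 and those higher in the age interaction from 0 to 1. Under the block the sign turned for Muc1 in MPP3 cells (0.20), Osmr in the age interaction (-0.078) and C4b in the cell type interaction (0.11).

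Other signs turned as follows. Without both Y-WT HSC libraries, Il6st was at 0.31 in young HSCs, -0.53 in the age and -0.079 in the cell type interaction, Osmr at -0.39 in the age interaction, and Socs3 and C4b at 0.11 and 0.64 in the cell type interaction. With the endothelial covariate, Il6st was at 0.088 in young HSCs and -0.22 in the age interaction, Il6ra at -0.042 in middle-aged HSCs, C4b at -0.044 between WT cell types, Osmr at -0.23 in the age interaction, and Socs3 and C4b at 0.083 and 0.64 in the cell type interaction. With the receptor covariate, Lifr was at -0.20 in middle-aged HSCs, and Socs3 and C4b at 0.048 and 0.17 in the cell type interaction. C4b was there at 0.064 with DESeq2, 0.060 with RLE scaling and 0.039 in one fit, and Stat3 in young HSCs was at 0.029 with no filter.

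With 1 library left out in turn, ranges that crossed 0 were -0.80 to 0.063 (C4b), -0.032 to 0.035 (Stat3) and -0.12 to 0.059 (Il6ra) in young HSCs, -0.14 to 0.14 (Il6ra) in middle-aged HSCs, and -0.61 to 0.39 (C4b), -0.59 to 0.31 (Muc1) and -0.24 to 1.14 (Osmr) in MPP3 cells. They were -0.50 to 0.065 (Socs3) between WT cell types, -0.12 to 0.25 (Il6ra) and -0.15 to 0.55 (Osmr) in the age interaction, and -0.23 to 0.41 (Socs3) and -0.49 to 0.72 (C4b) in the cell type interaction. Members called lower ranged from 0 to 1 in middle-aged HSCs and 2 to 4 between WT cell types (2 without Y-WT HSC replicate 4), and members called higher from 0 to 1 between WT cell types and 1 to 2 in the cell type interaction. Pathway calls ranged from 0 to 3 lower and 0 to 2 higher in middle-aged HSCs, 0 to 1 in each direction in MPP3 cells and the cell type interaction, and 6 to 13 in each direction between WT cell types. Depth limits Lrg1, Muc1, Osmr and Lifr in MPP3 cells and Lifr in middle-aged HSCs, where libraries held few counts.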
